A study of Rattus norvegicus with 8 samples.

Results

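Fatty acid oxidation and ketogenesis were described in rat liver through a list of 39 genes, chosen by name for their place in the pathway: regulators, mitochondrial enzymes and carriers, peroxisomal proteins and ketogenic enzymes. A gene counted as measured if a probe set of the array carried its symbol alone, and the brightest such probe set over all arrays stood for it. By this rule 38 of the 39 genes were measured, out of 14217 genes in all: 2 regulators, 20 mitochondrial, 13 peroxisomal, 2 ketogenic and 1 cytosolic gene. Acaa1a was not analysed here. The list was drawn up with earlier results of these data known, so its counts beside those of all genes are descriptive.

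Livers came from male Sprague-Dawley rats weighing 180 to 200 g. Each rat had an injection into the peritoneum, of AICAR (0.7 g/kg) or saline, and another into muscle, of dexamethasone (1.5 mg/kg) or saline, so that vehicle livers also saw both injections, and RNA was taken from the whole liver 8 h later. Dexamethasone is a synthetic glucocorticoid, and AICAR is taken up by cells and activates AMPK, a kinase that senses low energy; the design asked whether AMPK changes the metabolic actions of glucocorticoids. The 4 groups (vehicle, dexamethasone, AICAR, and dexamethasone plus AICAR, called the combination) held 2 Affymetrix arrays each. Whether separate animals gave the arrays of a group is not stated in the labels, so the p-values reflect the spread of these arrays alone, and that spread may be technical. In RNA of whole liver, fewer cells of a type and less RNA per cell cannot be told apart.

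Mitochondria burn fatty acids by beta-oxidation: acyl groups are activated to coenzyme A esters, carried across the inner membrane as carnitine esters, and shortened in repeated rounds of dehydrogenation, hydration, dehydrogenation and thiolysis. Peroxisomes shorten very long and branched chains and the side chains of bile acid precursors, then pass the products on. In fasting liver much of the resulting acetyl-CoA becomes ketone bodies, and the nuclear receptor PPAR alpha, encoded by Ppara, drives many of these genes as a partner of RXR on DR1 elements, a pair of AGGTCA hexamers with 1 base between them.

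The deposited values are log2 expression estimates, and all levels and differences here are on that scale. Arrays of the same group correlated at 0.9969 to 0.9979, those of different groups at 0.9792 to 0.9926, and no array stood apart from its group. The mean of 8 measured hepatocyte markers (of 9 listed) stayed between 13.91 and 13.96 on all 8 arrays. Single markers moved: 1 was called higher and 1 lower than vehicle after AICAR, as in the combination, and 0 were called after dexamethasone. The mean of 9 measured Kupffer cell markers (of 11 listed) was 8.55 for vehicle, 7.44 for dexamethasone, 8.73 for AICAR and 4.07 for the combination, where all 9 fell against vehicle (median -4.42). In the order vehicle, dexamethasone, AICAR, combination, the group means of other non-parenchymal lists also shifted. Sinusoidal endothelium (5 markers measured of 7) read 8.23, 7.63, 8.16 and 7.54, erythroid cells (4 of 5) 6.50, 5.85, 6.46 and 5.99, and lymphocytes (7 of 7) 5.43, 4.98, 5.26 and 4.68. Stellate cells (8 of 8) read 6.97, 7.29, 7.65 and 7.59, but their markers did not all move the same way. Against vehicle, 6 of the 8 were called higher and 0 lower after AICAR. After dexamethasone 2 were higher and 2 lower, and in the combination 4 were higher and 2 lower. Cholangiocytes (3 of 4) lay between 5.75 and 5.94. Muscle markers averaged 3.85 to 4.02 by group, close to 3.84, the lowest lower quartile of an array. Adipocyte markers averaged 4.33 to 4.96, and 1 of the 5 was called after dexamethasone: Cidea, a lipid droplet protein, rose from 6.14 and 6.28 to 8.70 and 8.93 (adjusted p = 7.93e-07). The actin control of the array, read at its 3′ minus its 5′ end as a measure of RNA quality, gave group means of 2.23 for vehicle, 2.04 for dexamethasone, 1.82 for AICAR and 1.80 for the combination. The parts that RNA quality and these marker shifts had in the results below were not tested.

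Promoters are shown for the 2 members with the greatest departure from additivity of the agents, Eci1 and Acox2, and for the 2 members whose promoter came closest to a DR1 element, Acadvl and Acot8. They are RefSeq windows of assembly GRCr8, from 250 bases before the start site to 50 bases after it, printed 5′ to 3′ on the strand of the gene. Capitals mark exact AGGTCA hexamers, on either strand, and DR1 elements with at most 1 mismatch. The Eci1 window is chr10:13961000-13961299 on the + strand, that of Acox2 is chr15:19090705-19091004 on the + strand, that of Acadvl is chr10:55236656-55236955 on the - strand and that of Acot8 is chr3:173962139-173962438 on the - strand.
Eci1: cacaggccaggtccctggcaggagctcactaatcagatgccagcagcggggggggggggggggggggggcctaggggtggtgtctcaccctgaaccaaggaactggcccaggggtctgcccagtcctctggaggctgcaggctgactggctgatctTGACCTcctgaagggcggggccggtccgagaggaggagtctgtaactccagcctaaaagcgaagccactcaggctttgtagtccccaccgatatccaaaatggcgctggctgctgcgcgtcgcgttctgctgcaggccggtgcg
Acox2: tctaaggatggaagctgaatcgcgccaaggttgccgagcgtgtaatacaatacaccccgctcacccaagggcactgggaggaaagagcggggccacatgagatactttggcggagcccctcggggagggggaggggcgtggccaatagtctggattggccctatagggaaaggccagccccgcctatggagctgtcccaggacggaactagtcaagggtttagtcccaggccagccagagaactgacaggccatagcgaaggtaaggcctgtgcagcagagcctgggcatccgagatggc
Acadvl: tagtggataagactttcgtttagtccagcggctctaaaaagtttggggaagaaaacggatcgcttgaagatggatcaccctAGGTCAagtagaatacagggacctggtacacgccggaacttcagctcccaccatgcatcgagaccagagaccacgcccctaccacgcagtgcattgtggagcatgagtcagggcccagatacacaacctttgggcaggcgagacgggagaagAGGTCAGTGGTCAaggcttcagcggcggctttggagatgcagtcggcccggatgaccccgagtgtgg
Acot8: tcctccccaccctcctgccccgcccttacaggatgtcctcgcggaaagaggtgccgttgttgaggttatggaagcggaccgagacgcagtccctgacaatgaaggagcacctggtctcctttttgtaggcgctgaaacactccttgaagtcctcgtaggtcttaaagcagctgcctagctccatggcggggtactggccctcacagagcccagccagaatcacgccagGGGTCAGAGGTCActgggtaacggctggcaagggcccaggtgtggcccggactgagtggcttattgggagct
DR1 was searched on both strands as AGGTCA, any 1 base and AGGTCA, as were the single hexamer AGGTCA, which every exact DR1 contains, and a glucocorticoid element written as GNACA, any 3 bases and TGTNC. A DR1 with at most 2 mismatches lay in 8 of the 35 member promoters in the table (22.9%), against 3.77% of all 33469 promoters of that length: those of Acadvl, Acot8, Amacr, Crat, Echs1, Etfa, Slc25a20 and Slc27a2. With at most 1 mismatch it lay in 2 of the 35 (5.71%, against 0.439% of all), at bases -17 to -5 of Acadvl and -22 to -10 of Acot8, counted from the start site. The hexamer lay in 9 of the 35 (25.7%, against 16.2% of all), among them Eci1, whereas the letters of neither motif were found in the Acox2 window. The glucocorticoid element was found in 0 of the 35, and in 0.439% of all promoters. A match in letters is a description and not evidence of binding.

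Dexamethasone alone lowered more members than it raised: 7 of 38 rose and 15 fell, a median difference of -0.09 from vehicle. Over all 14217 genes, 8.37% were called higher and 14.3% lower in the same test (limma, adjusted p under 0.05). Members were brighter than most genes (median level 10.4 against 6.35), and among the 3555 brightest genes, which held 34 of the 38, 16.2% were higher and 22.1% lower. The falls took in 7 of 20 mitochondrial and 6 of 13 peroxisomal members, the rises 4 and 2. The 4 mitochondrial rises became 2 without vehicle replicate 1 or dexamethasone replicate 2, and the 2 peroxisomal rises became 0 without vehicle replicate 2 and 1 without any other vehicle, dexamethasone or combination array. The count of rises over all members was 3 without vehicle replicate 2, 3 without dexamethasone replicate 2 and 4 without vehicle replicate 1. Centring on the brighter probe sets instead moved the share of called genes that were higher from 36.9% to 47.2%, and that of called members from 31.8% to 38.1%.

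AICAR alone raised 1 member, Crat, and lowered 13 (median -0.14), against 6.22% of all genes called higher and 8.96% lower. Among the brightest genes the shares were 9.48% and 15.2%. The falls were in 8 of 13 peroxisomal and 4 of 20 mitochondrial members, with Pdk4 as the other. On the further lists described below, 7 of 35 measured peroxisomal genes fell after AICAR and 3 rose, and 2 of 28 mitochondrial genes fell and 2 rose. The 8 peroxisomal falls became 5 without vehicle replicate 1 or AICAR replicate 1, where the calls of Hsd17b4, Pex11a and Phyh ended. The share of called genes that were higher depended on the scaling: it was 41% as deposited, 50.8% after cyclic loess and 55.2% after centring, against 7.14%, 14.3% and 7.69% of called members.

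In the combination 12 members rose and 11 fell against vehicle (median 0.03), beside 15.9% of all genes called higher and 18.4% lower. Among the brightest genes the shares were 29.5% and 28.6%, near those of the members. Of the called members 52.2% were higher, or 41.7% after cyclic loess. Against dexamethasone alone, 11 members were higher in the combination and 5 lower (median 0.04), where 14% and 11.3% of all genes were called, and 25% and 20.6% of the brightest genes. The 11 became 6 without replicate 1 and 7 without replicate 2 of the combination, and the 5 became 3 without its replicate 2. Against AICAR alone, 14 members were higher and 6 lower (median 0.16), where 18.7% and 19.4% of all genes were called, and 35.2% and 26.8% of the brightest genes. These comparisons share groups, so their counts are not independent of each other.

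**Figure D1:**
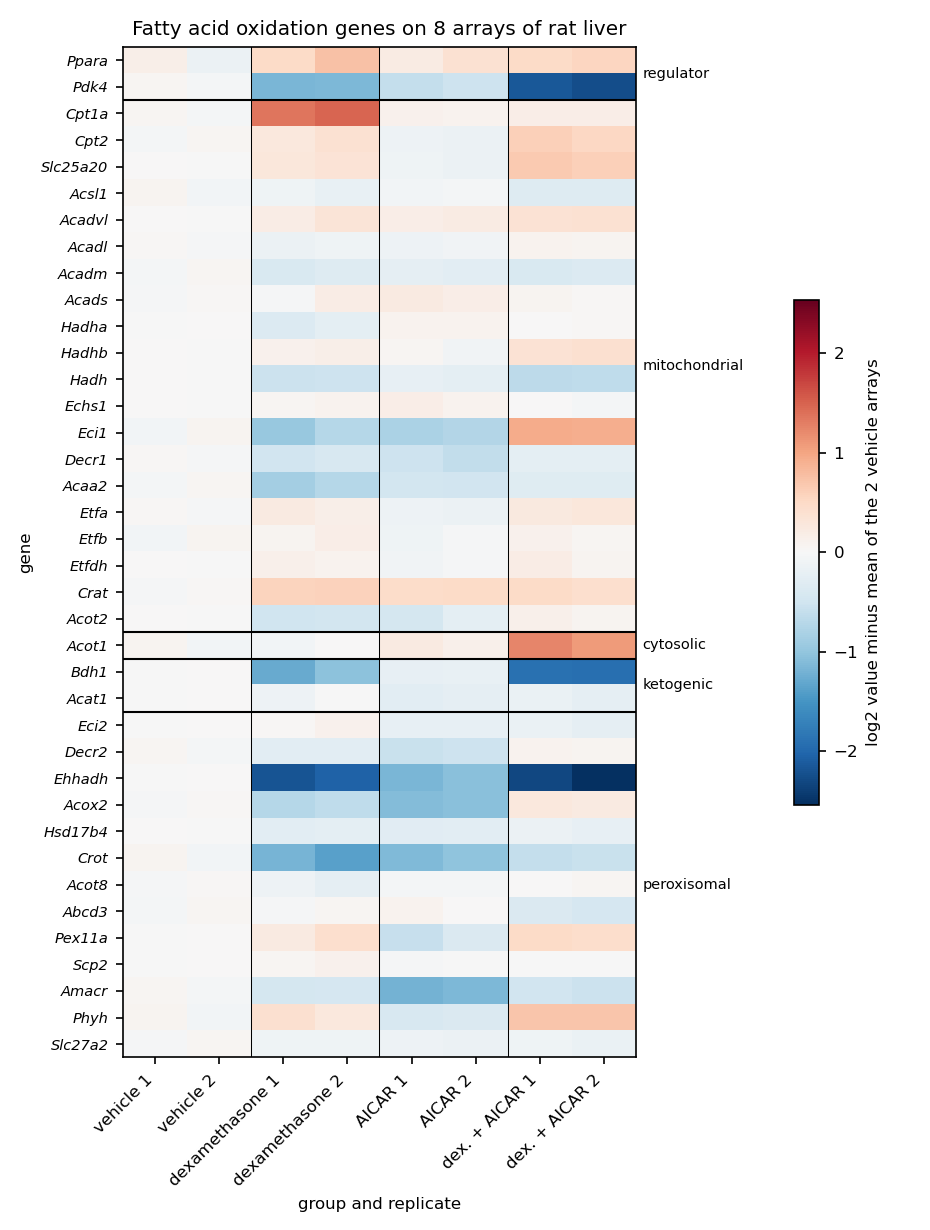
Log2 value on each of the 8 arrays minus the mean of the 2 vehicle arrays, for the 38 measured genes in rows by class and the arrays in columns by group; red is higher and blue lower than vehicle. Ehhadh, Pdk4 and Bdh1 are blue after dexamethasone and in the combination, Cpt1a is red after dexamethasone alone, and Eci1 and Acox2 are blue after each agent alone and red in the combination.

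Departure from additivity was measured by the interaction, the dexamethasone effect with AICAR present minus that without it. It was above 0 in 26 members and below 0 in 12 (median 0.23), and was called positive in 14 and negative in 5. Of all genes, 11.9% were called positive and 8.05% negative, and of the brightest genes 22.3% and 13.8%. A positive interaction was called in 8 of 13 peroxisomal members (median 0.62) and in 5 of 20 mitochondrial members (median 0.22). The further lists described below did not share this lean. Of their 35 measured peroxisomal genes, 7 were called positive and 6 negative (median 0.01). Of their 28 mitochondrial genes, 2 were called positive and 6 negative (median -0.07). The share of called genes that were positive fell from 59.7% as deposited to 48.1% after cyclic loess and 49% after centring, and that of called members went from 73.7% to 70.6% and 72.2%. The 5 negative calls became 3 without vehicle replicate 1, AICAR replicate 1, AICAR replicate 2 or combination replicate 1, and 2 without combination replicate 2.

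**Figure D2:**
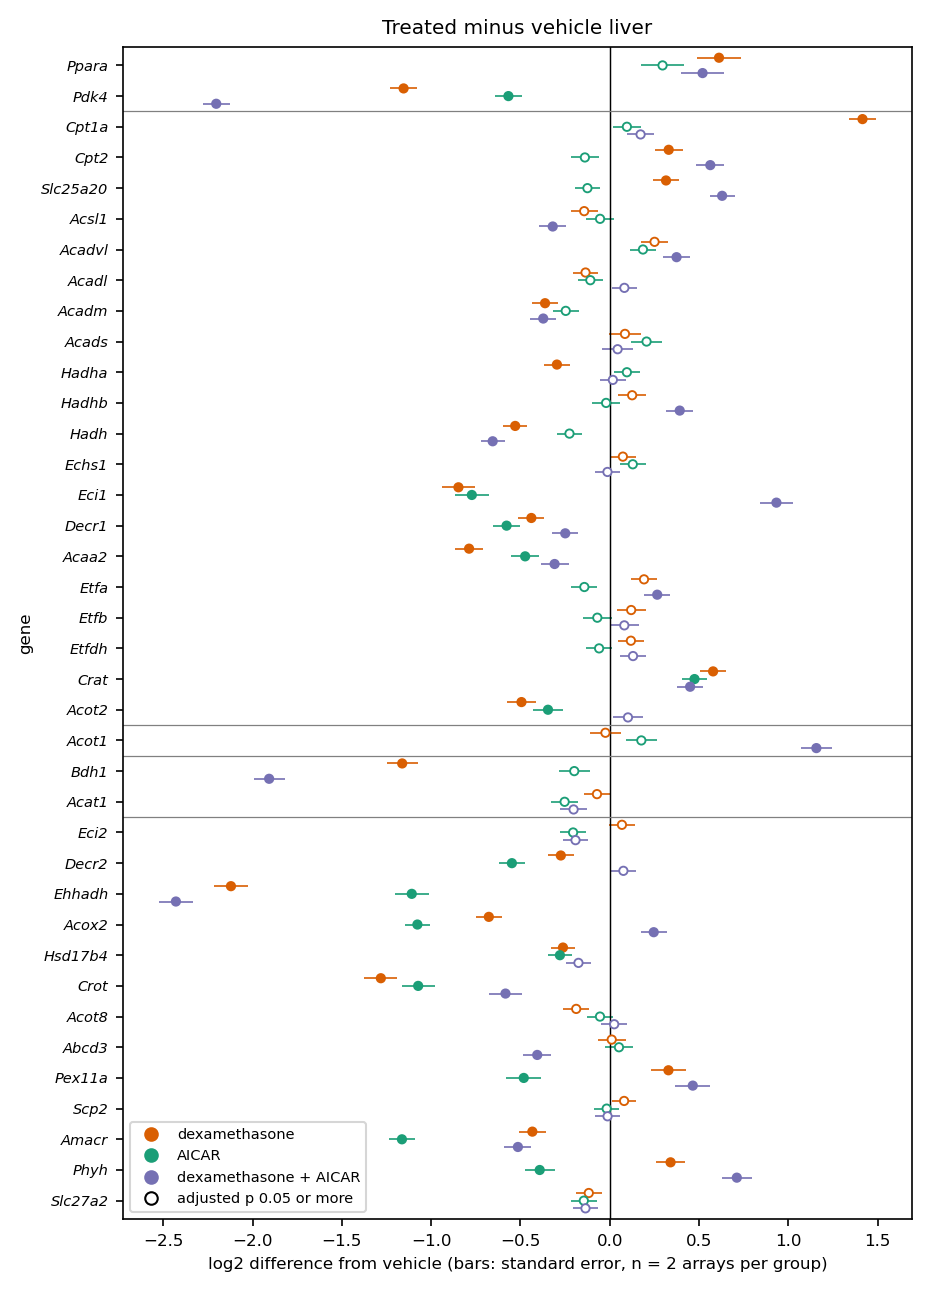
Log2 difference from vehicle of each of the 38 genes after dexamethasone (orange), AICAR (green) and both (purple); bars are standard errors of the fit (n = 2 arrays per group), and open circles have an adjusted p of 0.05 or more. Ehhadh lies at -2.12, -1.11 and -2.43, whereas Eci1 lies at -0.85 and -0.77 after each agent alone and at 0.93 after both.

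Among the regulators, Ppara read 4.80 and 4.51 in vehicle, 5.14 and 5.39 after dexamethasone, 4.86 and 5.04 after AICAR, and 5.15 and 5.20 in the combination. Both groups that had dexamethasone lay above both vehicle arrays, and AICAR lay between them, overlapping no other group. The probe set was dim: its mean over the 8 arrays, 5.01, lay below the lowest median of an array (5.22). Ppara rose by 0.61 ± 0.12 after dexamethasone (standard error, n = 2 arrays per group, limma adjusted p = 0.0087) and by 0.52 ± 0.12 in the combination (adjusted p = 0.0129). The first call was lost on leaving out vehicle replicate 2 (adjusted p = 0.0588) or dexamethasone replicate 2 (0.0619), and the second without vehicle replicate 2 (0.0877) or combination replicates 1 (0.0516) or 2 (0.0711).

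Pdk4 encodes the kinase that switches off pyruvate dehydrogenase, so that fat is burned in place of glucose, and is a textbook target of PPAR alpha. Its values were 9.31 and 9.21 in vehicle, 8.09 and 8.12 after dexamethasone, 8.66 and 8.73 after AICAR, and 7.10 and 7.02 in the combination. No groups overlapped, and the order was vehicle, AICAR, dexamethasone, combination. Pdk4 fell by 1.15 ± 0.08 after dexamethasone (adjusted p = 1.99e-05), by 0.57 ± 0.08 after AICAR (0.0026) and by 2.20 ± 0.08 in the combination (2.77e-07), where it was 4.61-fold lower than in vehicle. Its interaction was -0.48 ± 0.11 (adjusted p = 0.0182), a call that ended without vehicle replicate 2 (0.0597), AICAR replicate 2 (0.0628) or combination replicate 2 (0.0736). A dimmer probe set of Pdk4 fell by 0.67 after dexamethasone and by 1.34 in the combination, and stood at -0.09 after AICAR (0.499).

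The carnitine shuttle is made up of Cpt1a, Slc25a20 and Cpt2, and all 3 were called higher after dexamethasone. Cpt1a, the malonyl-CoA-sensitive transferase of the outer membrane that sets the rate of entry, read 10.02 and 9.93 in vehicle, 11.33 and 11.45 after dexamethasone, 10.07 and 10.06 after AICAR, and 10.14 and 10.15 in the combination. Only the dexamethasone arrays stood above 11. Cpt1a rose by 1.41 ± 0.08 after dexamethasone (2.67-fold, adjusted p = 6.45e-06), and in the combination it was lower than after dexamethasone by 1.24 ± 0.08 (2.37-fold, adjusted p = 1.44e-05) and 0.17 ± 0.08 from vehicle (adjusted p = 0.14). Its interaction, -1.34 ± 0.11, was the most negative of the 38 (adjusted p = 1.19e-04). A dimmer probe set of Cpt1a gave 1.39 after dexamethasone and an interaction of -1.42, but was also called higher after AICAR (0.46) and in the combination (0.43).

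Slc25a20, the carrier that swaps acylcarnitine for carnitine across the inner membrane, read 9.53 and 9.50 in vehicle, 9.81 and 9.86 after dexamethasone, 9.41 and 9.38 after AICAR, and 10.18 and 10.12 in the combination. Cpt2, which rebuilds the coenzyme A ester inside, read 9.33 and 9.41, 9.64 and 9.76, 9.23 and 9.23, and 9.98 and 9.89 in the same order. Both genes were lowest after AICAR and highest in the combination, with no overlap between groups. In the combination Slc25a20 rose by 0.63 ± 0.07 (adjusted p = 2.41e-04) and Cpt2 by 0.56 ± 0.08 (7.77e-04) against vehicle. After dexamethasone they rose by 0.31 ± 0.07 (0.0151) and 0.33 ± 0.08 (0.0189), calls that ended without 1 vehicle or dexamethasone array (Slc25a20 without vehicle replicate 1, 0.0532, vehicle replicate 2, 0.0771, or dexamethasone replicate 2, 0.0674; Cpt2 without vehicle replicate 1, 0.0978, or dexamethasone replicate 2, 0.0946). Acsl1, which activates long-chain acids, was lower by 0.32 ± 0.08 in the combination (0.0136), lost without vehicle replicate 1 (0.0832) or combination replicates 1 (0.0708) or 2 (0.0688). Another bright probe set of Acsl1 read 12.59 and 12.63 in vehicle and 11.94 and 11.95 in the combination. It fell by 0.66 there (adjusted p = 1.87e-04) and by 0.40 after dexamethasone (0.00484), where the chosen one stood at -0.14 (0.249). The remaining probe set of Acsl1 was dim, with a mean of 3.32 over the 8 arrays.

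**Figure D3:**
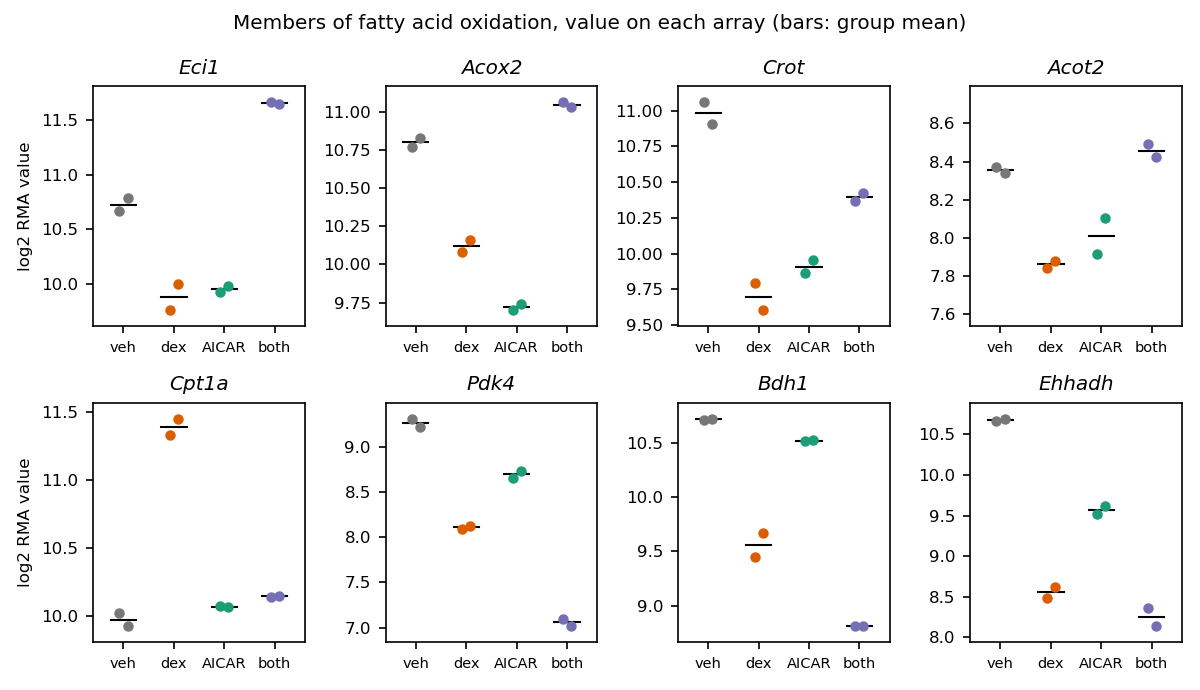
Log2 value on each array (points) and group mean (bars) for 8 genes; veh is vehicle, dex is dexamethasone and both is the combination, and each panel has its own axis. Eci1 and Acox2 are below vehicle after each agent and above it after both, Cpt1a stands at 11.33 and 11.45 after dexamethasone alone, and Pdk4 and Bdh1 are lowest after both.

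The acyl-CoA dehydrogenases, which open each round, moved little. Acadvl, for very long chains, rose by 0.37 ± 0.08 in the combination (adjusted p = 0.00605), its 2 arrays there at 10.05 and 10.06 against 9.69 and 9.67 in vehicle. Acadm, for medium chains, fell by 0.37 ± 0.07 in the combination (0.00544) and by 0.36 ± 0.07 after dexamethasone (0.00941), the latter lost without vehicle replicate 2 (0.0643) or dexamethasone replicate 1 (0.0501). Acadl and Acads passed the test in none of the 6 comparisons, with group differences from vehicle between -0.14 and 0.21. Of the flavoproteins that take their electrons, Etfb and Etfdh were called in no comparison and Etfa rose by 0.41 ± 0.07 in the combination against AICAR alone (0.00274).

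The trifunctional protein, which runs the later steps on long chains, has its subunits in Hadha and Hadhb. Hadha read 10.28 and 10.30 in vehicle, 9.94 and 10.05 after dexamethasone, 10.38 and 10.39 after AICAR, and 10.30 and 10.31 in the combination. Its fall of 0.30 ± 0.07 after dexamethasone (adjusted p = 0.022) ended without vehicle replicate 1 (0.075), vehicle replicate 2 (0.0951) or dexamethasone replicate 1 (0.0999), and over the mean of its probe sets it was -0.13 (0.373). The other probe sets of Hadha in that mean were far dimmer, averaging 3.27 and 5.31 over the 8 arrays against 10.25 for the chosen one. Hadhb was between 10.90 and 11.14 in the first 3 groups and at 11.37 and 11.40 in the combination, a rise of 0.39 ± 0.08 over vehicle (0.00513). Hadh, the dehydrogenase for shorter hydroxyacyl chains, went the other way: 11.88 and 11.87 in vehicle, 11.34 and 11.36 after dexamethasone, 11.66 and 11.64 after AICAR, and 11.21 and 11.23 in the combination. Its groups did not overlap, and it fell by 0.53 ± 0.07 after dexamethasone (8.8e-04) and by 0.66 ± 0.07 in the combination (1.5e-04). The other probe set of Hadh was dim, with a mean of 3.81 over the 8 arrays. Echs1, the hydratase, was called in no comparison.

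Eci1, Decr1 and Acaa2 carried positive interactions. Eci1, the isomerase that moves double bonds so that unsaturated acids can be degraded, read 10.66 and 10.79 in vehicle, 9.76 and 10.00 after dexamethasone, 9.92 and 9.98 after AICAR, and 11.67 and 11.65 in the combination. The groups of single agents overlapped each other below vehicle, and the combination lay above every other array. It fell by 0.85 ± 0.09 after dexamethasone (adjusted p = 3.85e-04) and by 0.77 ± 0.09 after AICAR (0.0017), and rose by 0.93 ± 0.09 in the combination (1.91-fold, 1.3e-04). The combination was 3.43-fold above dexamethasone alone and 3.26-fold above AICAR alone, and the interaction was 2.55 ± 0.13 (1.15e-05), the most positive of the 38. A dimmer probe set of Eci1 averaged 4.67 over the 8 arrays, below the lowest median of an array (5.22). It gave an interaction of 0.52 (adjusted p = 0.0281) and a difference of 0.09 (0.546) between combination and vehicle. The mean over both probe sets gave 1.54 and 0.51, and by means over probe sets the interaction of Acox2 (2.00) was the larger.

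Decr1, the mitochondrial reductase for 2,4-dienoyl chains, read 11.27 and 11.22 in vehicle, 10.77 and 10.85 after dexamethasone, 10.71 and 10.62 after AICAR, and 11.00 and 10.99 in the combination. All treated arrays lay below vehicle, those of the combination nearest to it. The falls were 0.44 ± 0.07 after dexamethasone (adjusted p = 0.00359) and 0.58 ± 0.07 after AICAR (0.00204), and the interaction was 0.77 ± 0.10 (0.0018).

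Acaa2, the thiolase that closes each round on shorter chains, read 12.31 and 12.40 in vehicle, 11.50 and 11.63 after dexamethasone, 11.88 and 11.88 after AICAR, and 12.05 and 12.04 in the combination. Its order was vehicle, combination, AICAR, dexamethasone, with no overlap. It fell by 0.79 ± 0.08 after dexamethasone (adjusted p = 2.04e-04) and by 0.47 ± 0.08 after AICAR (0.00653), with an interaction of 0.95 ± 0.11 (8.47e-04). For the combination against vehicle its probe sets disagreed: the brighter fell by 0.31 ± 0.08 (0.0181) and the dimmer rose by 0.83 ± 0.08 (9.35e-05). The fall was lost without vehicle replicate 2 (0.106) or combination replicates 1 (0.0778) or 2 (0.0901). Among 108 comparisons of 18 other probe sets of 14 members with the chosen ones, this was the 1 case of opposite calls.

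Crat, which moves acetyl groups between coenzyme A and carnitine, read 7.32 and 7.38 in vehicle, 7.92 and 7.94 after dexamethasone, 7.81 and 7.84 after AICAR, and 7.83 and 7.77 in the combination. Every treated array was above vehicle, and the combination was no higher than either agent alone. It rose by 0.58 ± 0.07, 0.47 ± 0.07 and 0.45 ± 0.07 (adjusted p = 6.87e-04, 0.00424 and 0.00165), and its interaction was -0.60 ± 0.10 (0.0049).

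Thioesterases release free acids from coenzyme A. Acot2, the mitochondrial one, read 8.37 and 8.34 in vehicle, 7.84 and 7.88 after dexamethasone, 7.92 and 8.10 after AICAR, and 8.49 and 8.42 in the combination. The single agents lay below vehicle and the combination above it. It fell by 0.49 ± 0.08 after dexamethasone (adjusted p = 0.00374), stood 0.10 ± 0.08 from vehicle in the combination (0.434) and had an interaction of 0.94 ± 0.12 (0.00122); its 2 dimmer probe sets rose in the combination by 0.51 (0.00484) and 1.24 (1.47e-05), with interactions of 1.24 and 1.89. Acot1, its cytosolic and near-identical relative, read 2.76 and 2.62, 2.63 and 2.71, 2.91 and 2.83, and 3.92 and 3.78 in the same order of groups. It rose by 1.16 ± 0.09 in the combination (2.63e-05), but 3 of its 4 group means were below the lowest lower quartile of an array, so the size of the change is uncertain, and probes may be shared with Acot2.

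Peroxisomal members held the steepest fall of the list and several of the clearest departures from additivity. Ehhadh, the bifunctional enzyme of the classical route and a textbook PPAR alpha target, read 10.66 and 10.69 in vehicle, 8.49 and 8.62 after dexamethasone, 9.52 and 9.62 after AICAR, and 8.36 and 8.14 in the combination. No groups overlapped, and the combination was lowest. It fell by 2.12 ± 0.10 after dexamethasone (4.35-fold, adjusted p = 2.43e-06), by 1.11 ± 0.10 after AICAR (2.16-fold, 3.16e-04) and by 2.43 ± 0.10 in the combination (5.39-fold, 5.04e-07). The combination and dexamethasone alone differed by -0.31 ± 0.10 (0.0529), and the interaction was 0.80 ± 0.13 (0.00518). Hsd17b4, the bifunctional enzyme for branched chains and bile acid precursors, lay between 11.67 and 11.96 on all arrays; its falls of 0.26 ± 0.07 after dexamethasone (0.029) and 0.28 ± 0.07 after AICAR (0.0316), and its interaction of 0.37 ± 0.10 (0.0356), were lost on removing single arrays (adjusted p = 0.0516 to 0.107, 0.0569 to 0.14 and 0.0643 to 0.122), the interaction for any array and the falls for any array of the groups compared or of the combination.

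The branched-chain and bile acid route held Acox2, Amacr and Phyh. Acox2, the oxidase for branched chains and bile acid intermediates, read 10.77 and 10.83 in vehicle, 10.08 and 10.16 after dexamethasone, 9.70 and 9.74 after AICAR, and 11.06 and 11.03 in the combination. As with Eci1, each agent alone lowered it and the combination lay highest. It fell by 0.68 ± 0.07 after dexamethasone (adjusted p = 3e-04) and by 1.08 ± 0.07 after AICAR (8.41e-05), and the combination stood 2.50-fold above AICAR alone (4.24e-06) and 1.90-fold above dexamethasone alone (5.52e-05). The interaction was 2.00 ± 0.10 (9.92e-06). Its rise of 0.25 ± 0.07 over vehicle in the combination (0.0339) was lost without any vehicle, AICAR or combination array (0.052 to 0.157).

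Amacr, the racemase that hands such chains to the oxidase, read 12.37 and 12.25 in vehicle, 11.86 and 11.89 after dexamethasone, 11.12 and 11.18 after AICAR, and 11.82 and 11.77 in the combination. All treated arrays lay below vehicle, AICAR lowest. It fell by 1.16 ± 0.08 after AICAR (2.24-fold, adjusted p = 7.12e-05), by 0.43 ± 0.08 after dexamethasone (0.00431) and by 0.51 ± 0.08 in the combination (0.00106), and its interaction was 1.08 ± 0.11 (3.49e-04).

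Phyh, the hydroxylase that starts the alpha-oxidation of phytanic acid, read 12.66 and 12.52 in vehicle, 13.00 and 12.86 after dexamethasone, 12.17 and 12.22 after AICAR, and 13.30 and 13.30 in the combination. AICAR alone was lowest and the combination highest, with no overlap. In the combination it rose by 0.71 ± 0.08 over vehicle (adjusted p = 2.97e-04) and by 1.10 ± 0.08 over AICAR alone (2.15-fold, 2.47e-05), and its interaction was 0.76 ± 0.12 (0.00338). The rise of 0.34 ± 0.08 after dexamethasone (0.0218) ended without vehicle replicate 2 (0.13) or dexamethasone replicate 1 (0.108), and the fall of 0.39 ± 0.08 after AICAR (0.0184) without vehicle replicate 1 (0.101) or AICAR replicates 1 (0.106) or 2 (0.0644). Its other probe set rose by 0.71 after dexamethasone (2.02e-04), fell by 0.40 after AICAR (0.00849), stood 0.06 from dexamethasone alone in the combination (0.627), and gave an interaction of 0.46 (0.0158).

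Crot, the carnitine octanoyltransferase that exports shortened chains from peroxisomes, read 11.06 and 10.90 in vehicle, 9.79 and 9.61 after dexamethasone, 9.86 and 9.95 after AICAR, and 10.37 and 10.42 in the combination. Each treated array was below vehicle, and in this probe set the combination was the nearest to it. It fell by 1.28 ± 0.09 after dexamethasone (2.43-fold, adjusted p = 3.34e-05), by 1.07 ± 0.09 after AICAR (2.10-fold, 3.2e-04) and by 0.58 ± 0.09 in the combination (0.0017), and its interaction was 1.77 ± 0.13 (7.29e-05). A dimmer probe set put AICAR (8.41 and 8.46) and the combination (8.38 and 8.39) at like levels, -0.05 apart (0.669). There Crot fell by 0.88 in the combination (6.23e-05), and the interaction was 1.21 (2.41e-04). The remaining probe set of Crot was dimmer still, with a mean of 5.27 over the 8 arrays. It read 5.47 and 5.95 in vehicle and 5.26 and 5.21 in the combination. The mean over all probe sets of Crot gave an interaction of 1.26.

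Decr2, the peroxisomal counterpart of Decr1, read 10.58 and 10.49 in vehicle, 10.26 and 10.26 after dexamethasone, 9.96 and 10.01 after AICAR, and 10.62 and 10.60 in the combination. Single agents lay below vehicle and the combination just above it. It fell by 0.55 ± 0.07 after AICAR (adjusted p = 0.00229) and differed from vehicle by 0.08 ± 0.07 in the combination (0.5), with an interaction of 0.90 ± 0.10 (7.12e-04). Its fall of 0.27 ± 0.07 after dexamethasone (0.0287) was lost without any vehicle, dexamethasone or combination array (0.0522 to 0.136).

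Pex11a, a membrane protein that promotes the division of peroxisomes, read 8.28 and 8.28 in vehicle, 8.51 and 8.70 after dexamethasone, 7.69 and 7.91 after AICAR, and 8.77 and 8.72 in the combination. Both groups with dexamethasone were above vehicle and AICAR alone was below it. The combination exceeded AICAR alone by 0.95 ± 0.10 (1.93-fold, adjusted p = 1.31e-04). Its rise of 0.46 ± 0.10 in the combination (0.00717) ended without combination replicate 1 (0.0504), and its fall of 0.48 ± 0.10 after AICAR (0.0152) without vehicle replicate 1 (0.0694), vehicle replicate 2 (0.0681) or AICAR replicate 1 (0.101). The interaction of 0.62 ± 0.14 (0.0176) ended without vehicle replicate 1 (0.0506), dexamethasone replicate 1 (0.0518), AICAR replicate 1 (0.0597) or combination replicate 1 (0.0656). A dimmer probe set rose by 0.75 in the combination (0.00113) but was not called after AICAR (-0.17, 0.375) or in the interaction (0.53, 0.0549).

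Abcd3, a transporter that brings acyl-CoA esters into peroxisomes, lay between 7.82 and 7.98 in the first 3 groups and at 7.51 and 7.45 in the combination. It fell by 0.41 ± 0.08 there against vehicle (adjusted p = 0.005). Acot8, Slc27a2 and Scp2 passed the test in none of the 6 comparisons in the probe set that represents each; another of Scp2 was lower in the combination than in vehicle (-0.24, 0.0359) and gave an interaction of -0.55 (0.00813). Eci2 passed in 1, at -0.26 ± 0.07 in the combination against dexamethasone alone (0.0322), a call that was lost without any dexamethasone, AICAR or combination array (0.0512 to 0.167).

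Of the ketogenic members, Bdh1, which interconverts acetoacetate and 3-hydroxybutyrate, read 10.71 and 10.73 in vehicle, 9.45 and 9.67 after dexamethasone, 10.52 and 10.53 after AICAR, and 8.82 and 8.81 in the combination. No groups overlapped, and both groups with dexamethasone were far below the others. It fell by 1.16 ± 0.09 after dexamethasone (2.24-fold, adjusted p = 3.94e-05) and by 1.91 ± 0.09 in the combination (3.75-fold, 1.19e-06), and stood -0.20 ± 0.09 from vehicle after AICAR (0.174). The interaction was -0.55 ± 0.12 (0.0181), a call that ended without vehicle replicate 1 (0.053), or any AICAR or combination array (0.0535 to 0.0605); a dimmer probe set gave -1.18 after dexamethasone, -2.32 in the combination and an interaction of -1.09 (0.00178). Acat1, the thiolase that condenses acetyl-CoA, differed between its probe sets. The brighter, which represents it in all counts, was called in no comparison and stood at -0.25 after AICAR (0.0576). The other read 8.00 and 7.99 in vehicle and 7.17 and 7.40 after AICAR, a fall of 0.71 (adjusted p = 0.00616), and was 0.54 higher in the combination than after AICAR alone (0.00753). The mean over both fell by 0.48 after AICAR (0.00716).

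**Figure D4:**
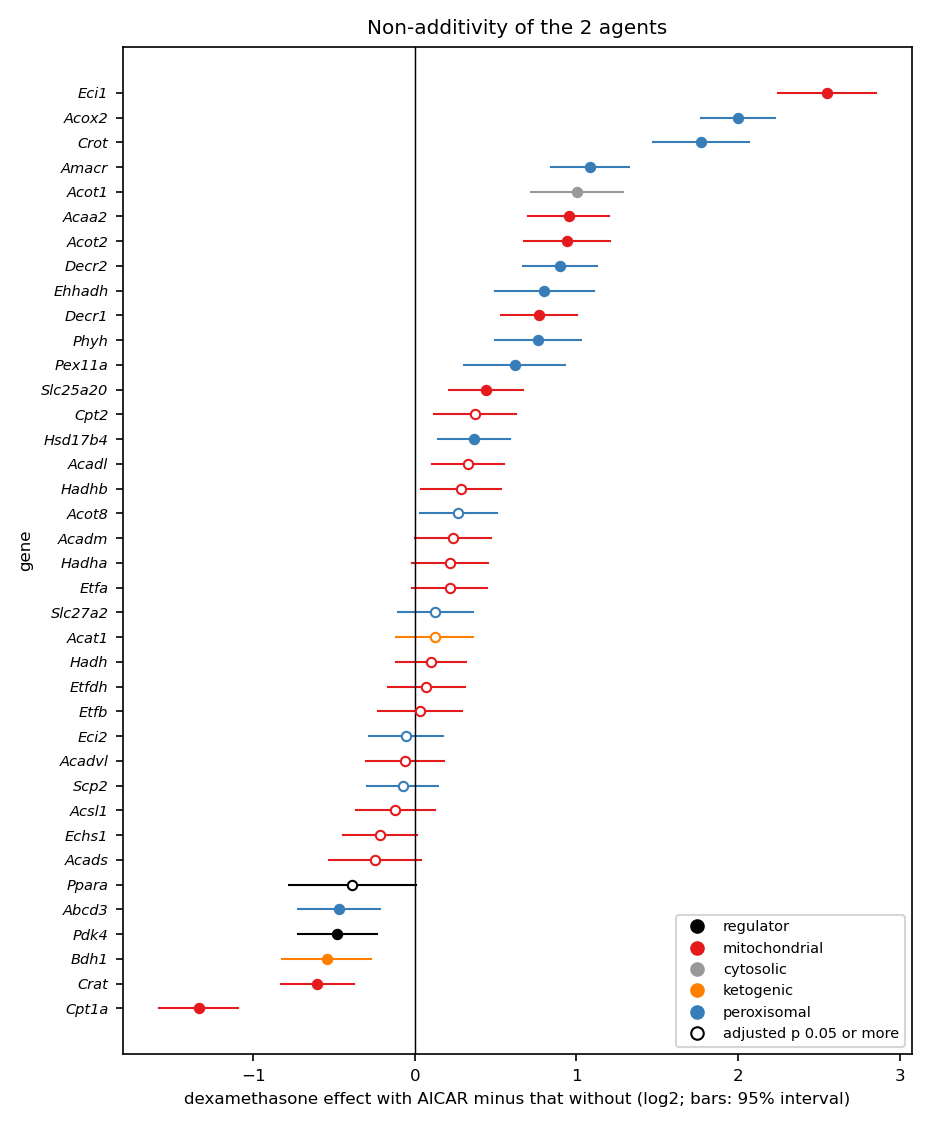
Interaction (dexamethasone effect with AICAR minus that without, log2) of the 38 genes in order of size, coloured by class; bars are 95% intervals and open circles have an adjusted p of 0.05 or more. Eci1 (2.55), Acox2 (2.00) and Crot (1.77) lie at the top and Cpt1a (-1.34) at the bottom.

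The rest of the pathway was read from 5 further lists of 123 genes, 106 of which were measured. After dexamethasone 27 of the 106 rose and 32 fell (25.5% and 30.2%, against 8.37% and 14.3% of all genes and 16.2% and 22.1% of the brightest). After AICAR 9 rose and 19 fell (8.49% and 17.9%, against 6.22% and 8.96% of all genes and 9.48% and 15.2% of the brightest). In the combination 26 rose and 31 fell against vehicle (24.5% and 29.2%), where the shares were 15.9% and 18.4% of all genes and 29.5% and 28.6% of the brightest. The interaction was called positive in 18 and negative in 19 (17% and 17.9%). The shares were 11.9% and 8.05% of all genes and 22.3% and 13.8% of the brightest. The lists' median difference lay between -0.06 and -0.03 in these comparisons. The 28 calls after AICAR became 14 without vehicle replicate 1 and 13 without AICAR replicate 1. Among 32 partners and textbook targets of PPAR alpha, 9 rose and 9 fell after dexamethasone, 3 and 7 after AICAR, and 11 and 9 in the combination, with medians of -0.04, -0.04 and 0.03. Ppargc1a, a coactivator of the receptor, rose by 0.57 ± 0.10 after dexamethasone (adjusted p = 0.00369) and by 0.51 ± 0.10 in the combination (0.00448); over the mean of its probe sets the first was 0.30 and was not called (0.0668).

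Cyp4a3, a fatty acid omega-hydroxylase and textbook PPAR alpha target, read 11.41 and 11.30 in vehicle, 9.79 and 9.88 after dexamethasone, 10.86 and 10.84 after AICAR, and 11.77 and 11.77 in the combination. Like Eci1 and Acox2, it was below vehicle after each agent and above it after both, with an interaction of 2.45 ± 0.11 (adjusted p = 4.14e-06). Its relative Cyp4a8 differed, with 5.84 and 5.82 in vehicle, 8.36 and 8.27 after dexamethasone, 6.85 and 6.76 after AICAR, and 8.01 and 8.04 in the combination. Ech1, an isomerase of dienoyl chains, fell by 0.49 ± 0.09 after dexamethasone (0.00545) and rose by 0.92 ± 0.09 in the combination (9.56e-05), with an interaction of 1.37 ± 0.12. Acot4, a peroxisomal thioesterase, rose by 0.78 ± 0.08 in the combination (1.68e-04), with an interaction of 1.59 ± 0.12 (6.81e-05).

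Hacl1, the lyase that follows Phyh in alpha-oxidation, read 10.58 and 10.53 in vehicle, 11.85 and 11.86 after dexamethasone, 9.77 and 9.75 after AICAR, and 10.48 and 10.36 in the combination. It rose by 1.30 ± 0.07 after dexamethasone (adjusted p = 8.19e-06), fell by 0.79 ± 0.07 after AICAR (4.36e-04) and stood -0.13 ± 0.07 from vehicle in the combination (0.229). Fgf21, a fasting hormone made under PPAR alpha, read 5.75 and 5.96, 7.18 and 7.18, 5.27 and 5.23, and 6.38 and 6.27 in the same order. It rose by 1.33 ± 0.09 after dexamethasone (2.42e-05) and by 0.47 ± 0.09 in the combination (0.00482), and fell by 0.60 ± 0.09 after AICAR (0.00425).

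Of 6 genes that control entry through malonyl-CoA, Acaca, a carboxylase that makes it, read 8.39 and 8.45 in vehicle, 9.92 and 9.92 after dexamethasone, 9.07 and 9.10 after AICAR, and 8.26 and 8.30 in the combination. As for Cpt1a, the dexamethasone arrays were highest: a rise of 1.50 ± 0.07 (adjusted p = 2.81e-06), a difference of -0.14 ± 0.07 from vehicle in the combination (0.2) and an interaction of -2.30 ± 0.10 (3.98e-06). Prkaa2, a catalytic subunit of AMPK, rose by 0.76 ± 0.07 after dexamethasone (1.55e-04) and stood 0.06 ± 0.07 from vehicle in the combination (0.595). Among 6 genes of ketone body export and use, Slc16a6, a transporter that exports ketone bodies, read 5.70 and 5.68 in vehicle, 6.09 and 6.34 after dexamethasone, 5.14 and 5.14 after AICAR, and 7.48 and 7.44 in the combination. It rose by 1.78 ± 0.09 in the combination (3.43-fold, 2.36e-06) with an interaction of 1.79 ± 0.13 (5.72e-05), the opposite direction to Bdh1. Slc16a1, another carrier of ketone bodies, stood 0.12 ± 0.08 from vehicle there (0.326), and Oxct1, which uses ketone bodies outside liver, fell by 0.47 ± 0.10 (0.00792), a call lost without vehicle replicate 2 (0.0535) or combination replicate 2 (0.0516).

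**Figure D5:**
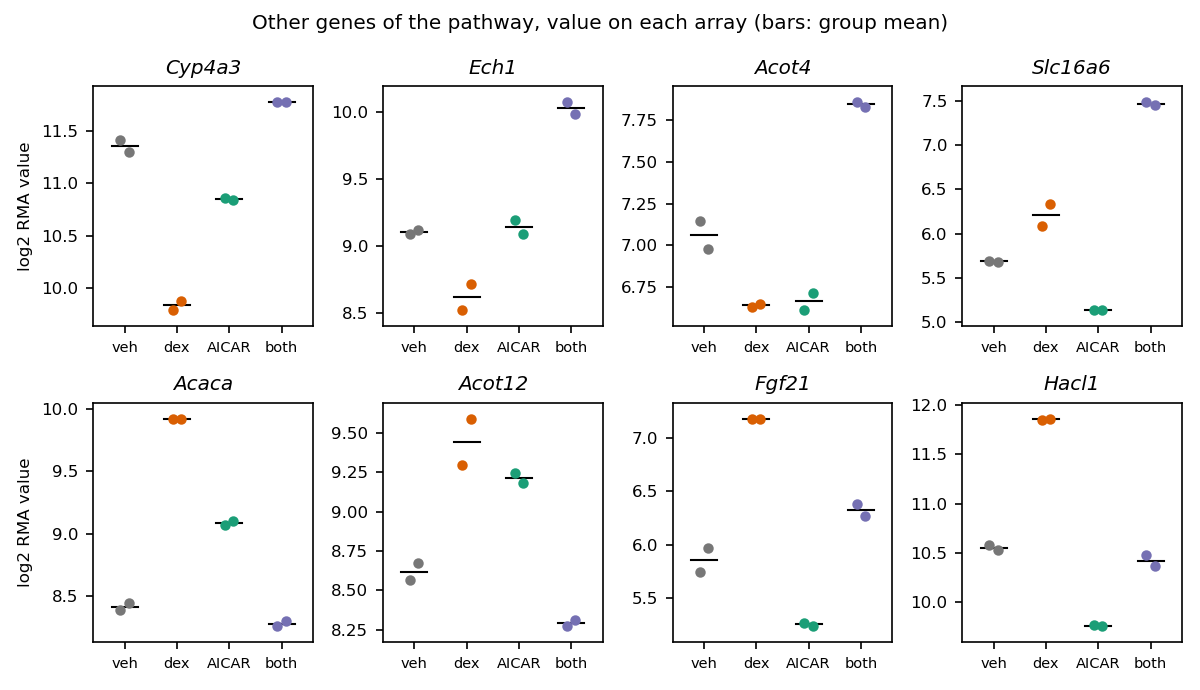
Log2 value on each array (points) and group mean (bars) for 8 other genes of the pathway; veh is vehicle, dex is dexamethasone and both is the combination, and each panel has its own axis. Cyp4a3, Ech1, Acot4 and Slc16a6 are highest after both agents, and Acaca, Acot12, Fgf21 and Hacl1 are highest after dexamethasone alone.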

How the data were processed

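Total liver RNA was measured on 8 Affymetrix rat arrays. The authors deposited log2 values, for which the submitters' processing notes name RMA and affy; versions, and the base of the logarithm in words, are not given in the sources used here, and base 2 was read from the range of the values. RMA gives no detection call and understates changes of dim probe sets. Without 57 array controls, 31042 of 31099 probe sets were tested; of these, 20826 carried 1 gene symbol, 436 several and 9780 none. A gene was represented by the probe set with its symbol alone and the highest mean over 8 arrays. Symbols of all 38 measured genes matched by gene ID the names of a rat gene table of assembly GRCr8, and 35 had a RefSeq promoter.

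Differences were fitted over all probe sets with limma 3.58.1 in R 4.3.3, 1 coefficient per group (4 residual and 4.58 prior degrees of freedom), adjusted after Benjamini-Hochberg over all 31042 and called at an adjusted p under 0.05. An exact permutation test of 2 arrays against 2 cannot reach 0.05 and was not made. The code was tested on simulated data. Values per array are given for genes with a difference of at least 0.5 in any comparison and for Ppara, Cpt1a, Hadha and Bdh1; from each further list, up to 4 called genes per comparison with the largest difference were open to naming, with Fgf21, and a few others (Ppargc1a, Pccb and Mmut) were chosen after their values were seen. As alternatives, each array was left out in turn, dim probe sets were filtered, the prior was made trended and robust, arrays were rescaled by cyclic loess or centred on their brighter probe sets, probe sets of a gene were averaged, the groups compared were fitted alone, and the replicate number entered as a block. The members and lists were chosen with earlier results of these data known. Same-numbered arrays did not deviate together (correlations of deviations -0.0418 to 0.16), and the labels do not pair them.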

Additional observations from a re-analysis of the deposited data

Results flagged for a closer look

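For 19 of the 38 genes the effect of dexamethasone differed between livers with and without AICAR (interaction, limma, adjusted p under 0.05). Positive calls made up 36.8% of the members, 11.9% of all genes and 22.3% of the brightest genes. Negative calls made up 13.2% of the members, 8.05% of all genes and 13.8% of the brightest. The positive values, in which the combination exceeded the sum of the separate changes, were 2.55 for Eci1, 2.00 for Acox2, 1.77 for Crot, 1.08 for Amacr, 1.00 for Acot1, 0.95 for Acaa2, 0.94 for Acot2, 0.90 for Decr2, 0.80 for Ehhadh, 0.77 for Decr1, 0.76 for Phyh, 0.62 for Pex11a, 0.44 for Slc25a20 and 0.37 for Hsd17b4. The negative values were -1.34 for Cpt1a, -0.60 for Crat, -0.55 for Bdh1, -0.48 for Pdk4 and -0.47 for Abcd3. The calls of Slc25a20, Hsd17b4, Abcd3, Pex11a, Bdh1 and Pdk4 ended in at least 1 fit that left out an array (adjusted p = 0.0503 to 0.122), and those of the other 13 genes held in all 8 such fits. The causes were not tested.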

How the results depend on the processing

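Of 228 differences of the 38 genes (6 comparisons each), 114 were called. Of these, 79 were called in the same direction in every alternative that gave a value, the removal of each array included, and 35 were not in at least 1. With 2 arrays per group, signal over background limits Acot1 most. A trended and robust prior gave more calls: 11 members higher after dexamethasone in place of 7, 4 higher and 21 lower after AICAR in place of 1 and 13, 10 lower in the combination than after dexamethasone in place of 5, and 44 other pathway genes after AICAR in place of 28. Cyclic loess gave 2 higher after AICAR, as did the mean over probe sets, and the fit of only the groups compared gave 3 higher after dexamethasone. Without 1 array, the members higher after dexamethasone numbered 3 to 7, those higher in the combination than after dexamethasone 6 to 11 and those lower 3 to 5, those with a negative interaction 2 to 5, and the other pathway genes called after AICAR 13 to 25. The mean over probe sets turned Acaa2 in the combination against vehicle (0.26, adjusted p = 0.0186), Scp2 in the combination against AICAR (-0.19, 0.0497), and Prkaa1 after AICAR (0.081, 0.547) and in the combination against AICAR (-0.035, 0.77), because the probe sets of these genes differ. With the replicate number as a block, 225 of the 228 kept their side of the threshold, and 3 calls ended: Decr1 in the combination against vehicle (-0.25, adjusted p = 0.0502), Hadhb in the combination against dexamethasone (0.27, 0.0562) and the interaction of Hsd17b4 (0.37, 0.0526).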

Other observations

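Propionyl-CoA, the last product of odd and branched chains, is disposed of through Pcca and Pccb, the subunits of its carboxylase, then Mcee, an epimerase, and Mmut, a mutase. Pcca read 9.61 and 9.55 in vehicle, 10.33 and 10.41 after dexamethasone, 9.32 and 9.34 after AICAR, and 9.51 and 9.45 in the combination. Mcee read 9.67 and 9.66, 10.38 and 10.42, 9.27 and 9.30, and 9.46 and 9.41 in the same order of groups. In both genes only the dexamethasone arrays stood above 10: Pcca rose there by 0.79 ± 0.07 (limma, adjusted p = 1.28e-04) and Mcee by 0.73 ± 0.07 (1.55e-04), and their interactions were -0.64 ± 0.10 (0.00423) and -0.59 ± 0.10 (0.00505). Pccb, the partner of Pcca in the enzyme, fell by 0.41 ± 0.08 after dexamethasone (limma, adjusted p = 0.00893), a call that ended without vehicle replicate 2 (-0.39). Mmut was called in no comparison, but its arrays lay far apart in vehicle (10.04 and 9.64) and after dexamethasone (10.07 and 9.65). It read 9.78 and 9.77 after AICAR and 9.50 and 9.44 in the combination, so a change of Mmut could have been missed.

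Gnpat, which starts the synthesis of ether lipids in peroxisomes, read 7.03 and 7.26 in vehicle, 8.50 and 8.56 after dexamethasone, 6.91 and 6.77 after AICAR, and 8.08 and 8.09 in the combination. It rose by 1.38 ± 0.09 after dexamethasone (limma, adjusted p = 2.42e-05) and by 0.94 ± 0.09 in the combination (1.27e-04). Hao2, a peroxisomal oxidase of long-chain hydroxy acids, was at 12.95 and 12.91 in vehicle and at 11.31 and 11.32 in the combination, a fall of 1.61 ± 0.07 (8.33e-07) with an interaction of -0.95 ± 0.10 (4.43e-04). Pdk2, a relative of Pdk4 with the same target, fell by 1.03 ± 0.07 in the combination (1.7e-05) and stood -0.16 ± 0.07 from vehicle after dexamethasone (0.166) and 0.06 ± 0.07 after AICAR (0.632).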
